A study of Homo sapiens with 2 samples.

Results

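The replication-dependent histone genes are the 71 protein-coding genes of the GENCODE 29 annotation whose symbols begin HIST1H, HIST2H, HIST3H or HIST4H, out of 49609 genes with a listed transcript. They code for the linker histones H1 (6 genes) and the core histones H2A (17), H2B (18), H3 (15) and H4 (15). The study sequenced RNA from MDA-MB-231 cells, an established line from a triple-negative breast tumour, in 1 library labelled as RBMS1 knocked down and 1 library labelled as control. The knockdown cells carried a stable lentiviral short hairpin RNA in the pLKO.1 vector against RBMS1, an RNA-binding protein, and the control cells carried pLKO.1 without it. Both were grown in L15 medium with 10% FBS. Each group is 1 library, so no difference could be checked against replicates and no test was made.

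Most histone messages of dividing cells differ from all other messages at the 3′ end. They carry no poly(A) tail, but end shortly after a conserved stem-loop that is bound by SLBP, the stem-loop binding protein, and cut with the help of the U7 small nuclear ribonucleoprotein. Their genes lie in clusters, mostly on chromosome 6, are switched on in S phase through NPAT, and often sit head to head in pairs of H2A and H2B genes that share a promoter. Some of these genes also give longer, spliced and polyadenylated messages.

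The stem-loop was searched by its usual consensus in the annotated transcripts and was present in 32 of the 71 genes (45.1%), against 14 of 19851 other protein-coding genes (0.0705%). Of the 39 genes without it, 35 had annotated models that stop at the stop codon, so the part that would hold it was not in the model. The stem-loops fell into 6 sequences, and lay between 22 and 67 bases after the stop codon. The 4 shown are the form carried by most genes, a form found in H4 genes alone, and 2 further variants. They are given 5′ to 3′ on the gene's own strand, in DNA letters of GENCODE 29 on GRCh38, with the 4 loop bases in capitals. The HIST1H2AC element lies at chr6:26124669-26124684 (plus strand), that of HIST1H4B at chr6:26026901-26026916 (minus strand), that of HIST1H2BC at chr6:26123472-26123487 (minus strand) and that of HIST1H2AG at chr6:27133515-27133530 (plus strand).
HIST1H2AC: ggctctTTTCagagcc
HIST1H4B: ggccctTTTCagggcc
HIST1H2BC: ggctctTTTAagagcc
HIST1H2AG: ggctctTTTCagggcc
The first form was shared by 17 genes and the second by 5, all of them H4 genes. HIST1H2AC matters below because 1 of its knockdown transcripts ends just before this element.

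Promoters, 250 bases before to 50 after the RefSeq start on GRCh38.p14, were matched for 66 of the 71 genes. The octamer ATTTGCAT, known as the site of POU2F1 and other octamer factors, was present on either strand in 14 of 18 H2B promoters (77.8%) and in 11 of 16 H2A promoters (68.8%), in 1 of 13 H3 promoters (HIST1H3D, whose RefSeq window is the same as that of HIST1H2AD) and in no H1 or H4 promoter. Of all 27305 promoters in the table, 1.80% held it. CCAAT was present in every matched H1, H2A, H2B and H3 promoter but in 3 of 13 H4 promoters (23.1%), against 35.7% of all promoters, and TATAAA in 66.7% against 12.0%. All 3 motifs were searched on both strands, and they are short enough to share letters at their ends. The windows below are shown because each lies between the start sites of an H2A and H2B pair whose values are described further on. They are given on the strand of the H2B gene, with the octamer in capitals, and lie at chr6:26124031-26124060 (minus strand), chr6:27146886-27146915 (minus strand), chr6:27132824-27132853 (minus strand) and chr6:27814963-27814992 (plus strand).
HIST1H2BC: tttcatacctcATTTGCATagctctgccca
HIST1H2BK: ctcttcaccttATTTGCATgagaggtccta
HIST1H2BJ: ctcttcaccttATTTGCATaagcgattcta
HIST1H2BM: ttctactcctaATTTGCATaataacattta
These matches describe letters in the window and were not tested for binding.

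The targeted gene RBMS1 was listed at 4.19 FPKM in the knockdown and 24.1 in the control library. FPKM, the number of fragments scaled by transcript length and by the mapped fragments of the library, is used here for every value unless another scale is named. The line's known pattern was present in both libraries: VIM was at 496 and 563, CD44 at 154 and 204, KRT18 at 162 and 190 and MSN at 115 and 139 (knockdown, then control), while PGR was at or near 0, ESR1 at 0.0996 and 0.0286, and ERBB2 at 7.5 and 7.0. The ratio of read coverage to FPKM, which scales with the number of mapped fragments, was 12.4 and 11.4, so the depths were close; total counts are not in the files used here. Each library's file lists annotated transcripts and transcripts that Cufflinks assembled from the reads. An assembled transcript was added to the same-strand gene with which it shares most exonic bases, by the strand given in the files; whether the libraries were made to keep strand is not given in the sources used here, which bears most on genes that lie head to head. Differences are log2 ratios of FPKM plus 1, knockdown over control.

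Of the 71 histone genes, 38 had a mean level of at least 1 and 33 did not, and the gap between them was wide: the highest value among the 33 was 0.341, and 37 of the 38 reached 5 in at least 1 library. Among the 38, 2 genes were at least 2-fold lower in the knockdown library, against 2.57% of all 11553 genes past the same limit, and 5 were at least 2-fold higher, against 2.80% of all genes. The median log2 ratio of the 38 was 0.10, and that of all genes was 0.02. On annotated transcripts alone 36 genes passed the limit, of which 7 were 2-fold lower and 3 higher, against 4.87% and 5.31% of all genes. Per base of coding sequence 39 genes passed the limit, of which 1 was 2-fold lower and 6 higher, against 1.75% and 1.72%. The 6 include HIST2H3PS2, which is not among the 38. It was at 2.91 and 0 there, on a transcript given to another gene. Among genes above 0 in both libraries 1 was 2-fold lower and 5 higher, against 1.56% and 1.62%. With assembled transcripts only where they share an intron with the gene 6 were 2-fold lower and 4 higher, against 2.78% and 2.94%, and with 5 FPKM added in place of 1 the counts were 2 and 5, against 116 and 116 of all 11553 genes. The values of 14 genes were lower and of 24 higher in the knockdown library. Scaling to TPM, so that annotated transcripts sum alike in both libraries, moved every ratio by -0.17 before 1 was added and the median of all genes to -0.14, where 22 values were lower and 16 higher, 2 of them 2-fold lower and 4 higher against 4.59% and 3.19% of all genes; directions of genes whose log2 ratio lies between 0 and 0.17 turn with the scaling. Cufflinks gives an interval for each transcript, and the interval of a gene is here the added bounds of its transcripts. Added bounds are not an interval of the sum. For 12 of the 38 these intervals overlapped between the libraries. The share over all genes was not counted, so this is not read as a result about the histone genes. These intervals cover uncertainty within a library only, not between cultures. The 2 lower genes were HIST1H4A and HIST1H2AM, and the 5 higher ones HIST1H2AC, HIST1H2AJ, HIST1H2BM, HIST1H4B and HIST1H3J. HIST1H2AJ and HIST1H2BM were named after their values were seen, as were the other genes described below whose mean is under that of the 30 highest.

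**Figure D1:**
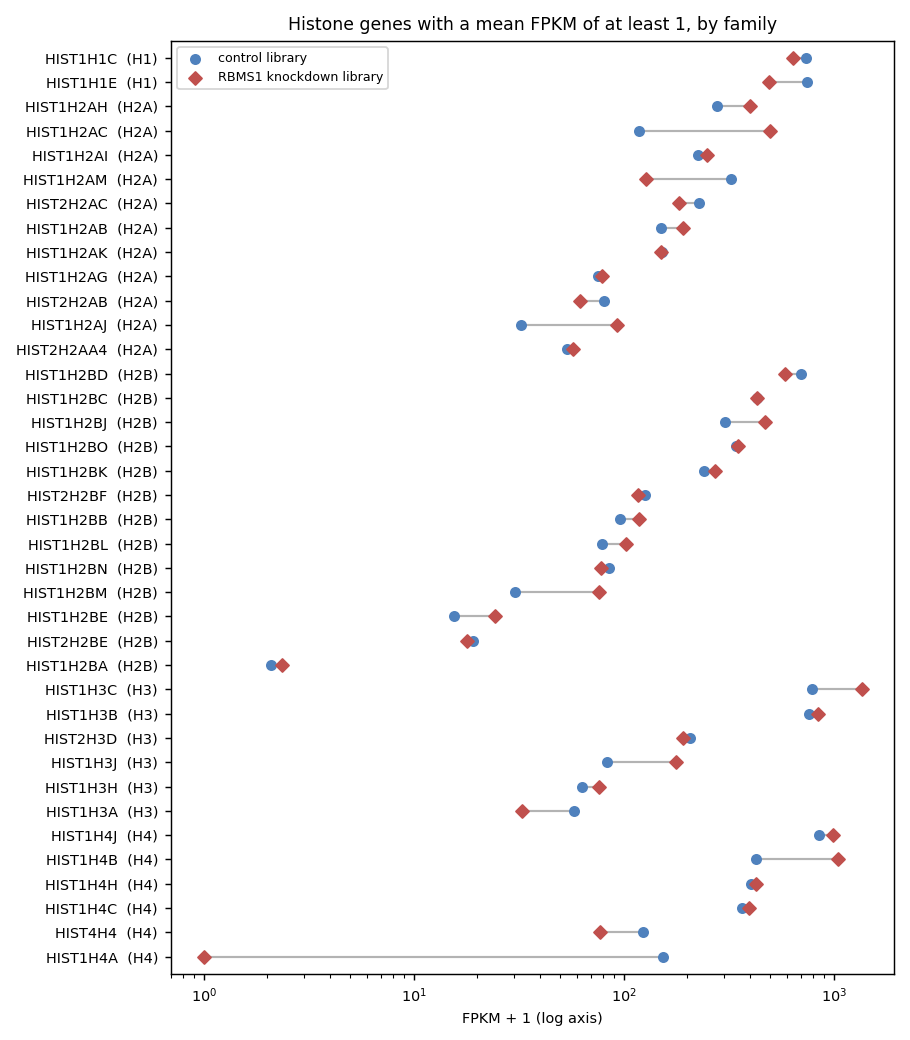
FPKM plus 1 (log axis) of the 38 histone genes with a mean of at least 1, ordered by family and mean level; circles are the control library, diamonds the knockdown library, 1 library each, and a line joins both values. Most pairs lie close together, with wide gaps for HIST1H2AC, HIST1H2AM, HIST1H2AJ, HIST1H2BM, HIST1H4B and HIST1H4A, the last listed at 0 in the knockdown library.

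Of the 7 genes past 2-fold, HIST1H2BM alone had no assembled transcript over it in either library. In 6 genes every annotated transcript was listed at 0 in the knockdown library while the control value was at least 1, and in no gene was it the other way round. Among all 10195 protein-coding genes past the limit, 2.10% were listed in this way at 0 in the knockdown and 2.41% in the control library. In 5 of the 6 an assembled transcript on the same strand was given to the gene in the knockdown library. The share of summed histone FPKM that stood on assembled transcripts was 38.0% in the knockdown and 19.7% in the control library. Assembled transcripts that overlap a histone gene numbered 18 and 12, of which 1 in the knockdown library, at 2.91 FPKM over HIST2H3PS2, was given to another gene and is not in this share.

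HIST1H2AC (chr6:26124145-26139116, plus strand, H2A) was listed at 0 on its 3 annotated transcripts in the knockdown and at 118 in the control library. In the knockdown library 2 assembled transcripts that start at the same base, one of 514 bases at 256 FPKM and one spliced, of 650 bases, at 240 FPKM, together gave 496. The annotated transcripts that carried the control value are 1654 and 1668 bases long. FPKM divides by length, so the same number of fragments gives a higher value on a shorter model. Multiplied by transcript length in kilobases, the gene stood at 288 in the knockdown and 195 in the control library. That is a log2 ratio of 0.56 in place of 2.07 on the FPKM scale. Per base of coding sequence the gene was at 496 and 118, also a log2 ratio of 2.07. FPKM times kilobases is not proportional to fragments where models are short, as FPKM there depends on the fragment sizes. This holds for every value on that scale, and the size of the effect was not tested. The 514-base transcript ends at chr6:26124658, before the stem-loop shown above, which starts at chr6:26124669.

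HIST1H2AH (chr6:27147129-27147515, plus strand, H2A) had an annotated level of 0 in the knockdown and 225 in the control library. With assembled transcripts the levels were 400 and 276. In the knockdown library the whole value stood on 1 assembled transcript of 435 bases that reaches beyond the 387 bases of the gene on both sides, and in the control library 51.1 stood on an assembled transcript of 1410 bases. As FPKM times kilobases the gene was at 174 and 159, a log2 ratio of 0.13.

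HIST1H2BK (chr6:27146418-27146798, minus strand, H2B), whose start lies 331 bases from that of HIST1H2AH on the other strand, was listed at 0 and 169 on its annotated transcript. With assembled transcripts it was at 272 and 240. The added bounds of its transcripts ran from 253 to 291 and from 220 to 260. They overlap, but are not intervals that Cufflinks gave for the gene. A further knockdown transcript at 151 FPKM, joined with HIST1H2BJ, was given to that neighbour; per coding base, where it counts for both, HIST1H2BK was at 329 and 240, a log2 ratio of 0.45. In both libraries assembled, spliced transcripts ran to an exon about 8 kilobases downstream. In the knockdown library there were 2 of them, of 441 and 743 bases, ending at chr6:27138376, and in the control library 1 of 761 bases, ending at chr6:27138360. This gene shares sequence with several other H2B genes, and 25.9% of its 50-base words were found in no other gene, so its reads could be split between copies.

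**Figure D2:**
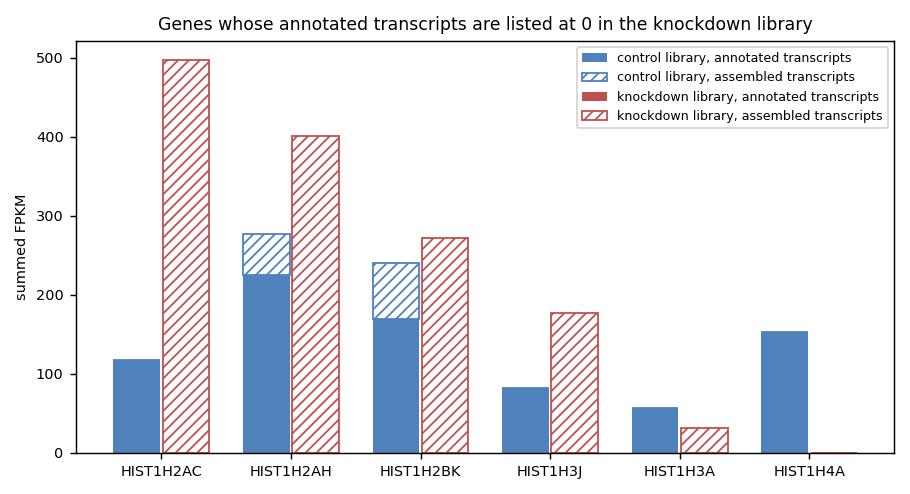
Summed FPKM on annotated transcripts (filled bars) and on assembled transcripts (hatched bars) in the control and knockdown libraries, for the 6 genes with annotated transcripts at 0 only in the knockdown. Assembled transcripts carry the whole knockdown value of HIST1H2AC (496), HIST1H2AH (400), HIST1H2BK (272), HIST1H3J (177) and HIST1H3A (31.7), and none was given to HIST1H4A.

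HIST1H4A (chr6:26021679-26021990, plus strand, H4) was the sixth gene. Its annotated transcript was at 153 in the control library and at 0 in the knockdown library. In the knockdown library 1 assembled transcript of 2214 bases at 31.7 FPKM (chr6:26020459-26022672) ran over both HIST1H4A and its upstream neighbour HIST1H3A (chr6:26020490-26020900, H3), and was given to HIST1H3A, with which it shares more bases. HIST1H3A had an annotated level of 0 and 56.8. Counted as 1 locus, the 2 genes held 70.3 FPKM times kilobases in the knockdown and 70.9 in the control library, a log2 ratio of -0.01. The control models were of 312 and 411 bases and the knockdown model of 2214, so these values do not show equal numbers of fragments. Per base of coding sequence, where the long transcript counts for both, HIST1H4A was at 31.7 and 153, a log2 ratio of -2.23 and the 1 gene 2-fold lower on that scale, and HIST1H3A at 31.7 and 56.8.

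**Figure D3:**
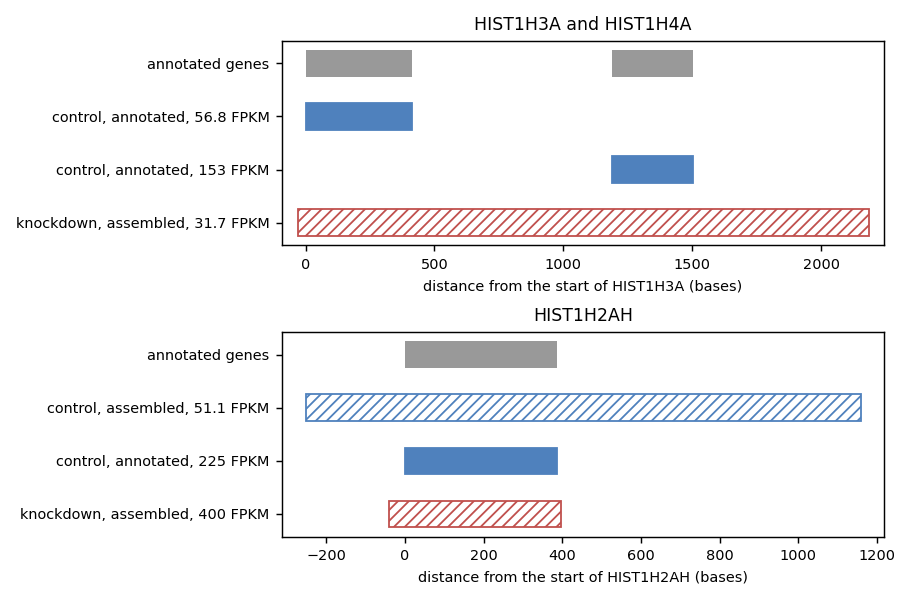
Annotated and assembled transcripts with a value above 0 at HIST1H3A and HIST1H4A (upper map) and at HIST1H2AH (lower map), drawn to scale in bases from the start of HIST1H3A or HIST1H2AH; grey bars are the annotated genes, filled bars annotated transcripts, hatched bars assembled ones, in blue for the control and red for the knockdown library. The 2 short control transcripts of the upper map, at 56.8 and 153 FPKM, stand against 1 long knockdown transcript at 31.7 FPKM.

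The joining of neighbours was seen at 4 places in the knockdown library and at none in the control library. Of all assembled transcripts, 1.36% in the knockdown and 1.30% in the control library touched at least 2 genes on their strand. The other 3 places were HIST1H1E with HIST1H2BD, HIST1H2BJ with HIST1H2BK, and HIST1H2AM with HIST1H3J. At HIST1H2AM (chr6:27892757-27893149, minus strand, H2A) the annotated level was 127 in the knockdown and 324 in the control library. HIST1H3J (chr6:27890382-27893106, minus strand, H3) was at 0 and 82.1 on its annotated transcripts, and at 177 and 82.1 with the assembled one, which is spliced, 853 bases long, and also covers HIST1H2AM. Per base of coding sequence, summing every same-strand transcript that covers it, HIST1H2AM stood at 302 and 350 FPKM, a log2 ratio of -0.21 in place of -1.34, so HIST1H2AM as a 2-fold lower gene rested on how this 1 transcript was given out. HIST1H3J stood at 159 and 64.3 per coding base, a log2 ratio of 1.30 against 1.10 as given out here and 0.93 under the TPM scaling, which is short of 2-fold. Counted together as FPKM times kilobases, the 2 genes were at 201 and 164. HIST1H2AM also shares most of its sequence, with 13.7% of its 50-base words unique.

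HIST1H1E (chr6:26156354-26157107, plus strand), a linker histone, was at 490 in the knockdown and 747 in the control library. Its annotated levels alone were 403 and 346, the opposite order; in the control library 401 FPKM stood on an assembled transcript of 518 bases, and in the knockdown library 87.7 on one of 2572 bases that runs on into HIST1H2BD. HIST1H2BD (H2B) was at 586 and 700. Together the 2 genes were at 782 and 783 FPKM times kilobases, a log2 ratio of 0.00. HIST1H2BJ (H2B) was at 469 and 304, and with HIST1H2BK at 335 and 264 FPKM times kilobases, a log2 ratio of 0.34.

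With joined neighbours counted once, the 71 genes formed 67 loci, of which 33 had a mean of at least 1 FPKM times kilobases. Their median log2 ratio was 0.09, with a range from -0.68 (HIST4H4) to 1.28 (HIST1H2BM). No locus was 2-fold lower and 2 were 2-fold higher, HIST1H4B at 385 and 186 and HIST1H2BM at 28.7 and 11.2. These counts rest on FPKM times full length, which is rough for short models, and may differ on another scale. Most of the HIST1H4B value in the knockdown library stood on 1 model of 346 bases. On the scale of FPKM times kilobases, 3.49% of all genes were 2-fold lower and 3.36% higher.

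HIST1H4B (chr6:26026815-26027252, minus strand, H4) was at 1043 in the knockdown and 425 in the control library. Its annotated transcript alone was at 267 and 425, so the order turned with the assembled transcript of 346 bases at 776 FPKM in the knockdown library. HIST1H3C (H3) had the same form, with 1356 against 787 in all, 621 against 787 on the annotated transcript, and 734 on an assembled transcript of 400 bases in the knockdown library alone. On coding bases the log2 ratios were 1.29 for HIST1H4B and 0.73 for HIST1H3C. The assembled models of both are shorter than the annotated ones, and FPKM of transcripts this short depends on the fragment sizes, which are not in the files used here.

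HIST1H2BO (H2B) was at 348 and 342, while its annotated transcript alone was at 288 and 93.2; a spliced assembled transcript carried 59.6 and 249. HIST1H3B (H3) was listed at 0 on its annotated transcript in both libraries and at 844 and 763 on assembled transcripts of 488 and 500 bases. HIST2H3D (H3) was at 192 and 205, mostly on an assembled transcript in each library, and HIST1H2AI (H2A) at 249 and 225. HIST1H1C, the other linker histone with a mean above 1, was at 637 and 735. With assembled transcripts counted, these 5 genes had log2 ratios under 0.5 in size; HIST1H2AI turned as FPKM times kilobases, at 125 and 138.

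**Figure D4:**
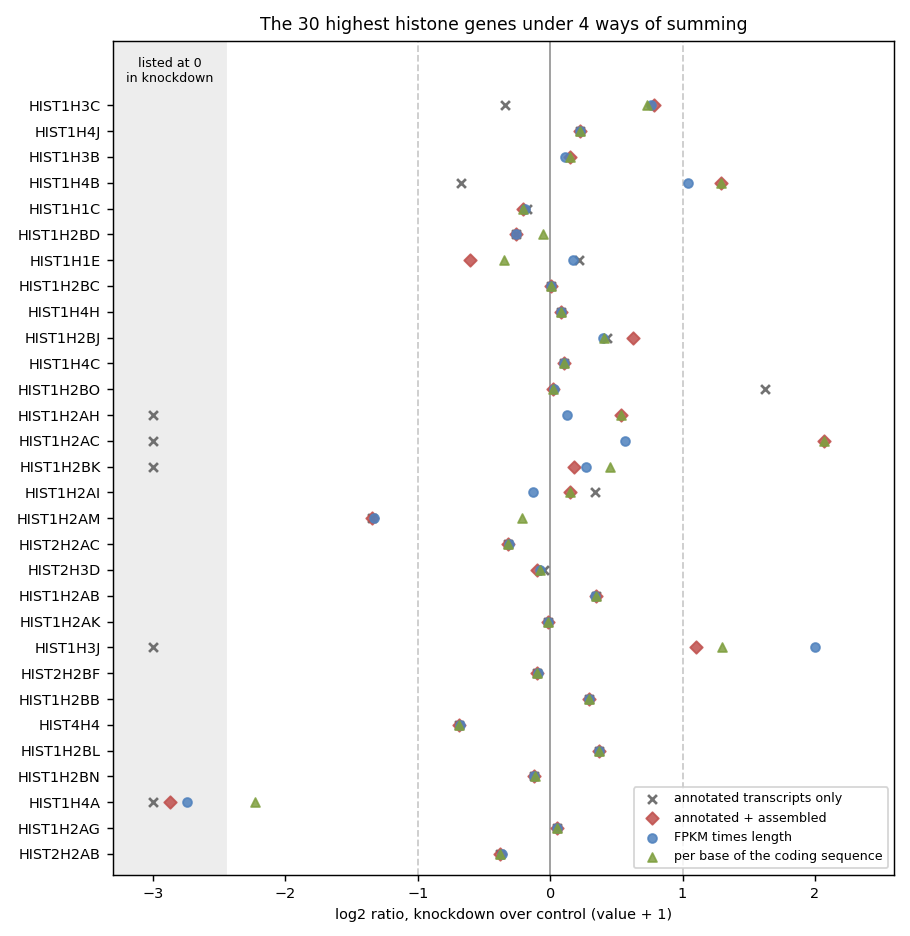
Log2 ratio, knockdown over control, of the 30 histone genes with the highest mean level (value plus 1), under 4 ways of summing: annotated transcripts only (crosses), annotated and assembled (diamonds), FPKM times length (circles) and per base of the coding sequence (triangles); marks in the grey band stand for genes listed at 0 in the knockdown library and have no ratio, and dashed lines mark 2-fold. The 4 ways coincide for genes without assembled transcripts such as HIST1H4J and HIST1H4C, and spread for HIST1H2AC, HIST1H4B, HIST1H2BO, HIST1H3J and HIST1H4A.

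The 18 genes past the limit with no assembled transcript over them in either library have values that do not turn on this choice. Of these, 7 lay below and 11 above their control values (12 and 6 under the TPM scaling). None was 2-fold lower and 1 was 2-fold higher (2.57% and 2.80% of all genes). In size, 16 had a log2 ratio under 0.5, and the intervals of 9 overlapped. For these last counts the share over all genes was not made, so they only describe the 18. The median log2 ratio was 0.07.

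Among the H4 genes of this kind, HIST1H4J was at 993 in the knockdown and 849 in the control library, HIST1H4H at 424 and 401, and HIST1H4C at 393 and 365. HIST4H4, which stands alone on chromosome 12 (chr12:14767999-14771131, minus strand), was at 75.9 and 123, the lowest log2 ratio of the 18 (-0.69), with intervals from 70.3 to 82.2 and from 115 to 132. The values of the first 3 were a little higher and that of HIST4H4 lower. Of the 50-base words of HIST1H4J, 18.8% were found in no other gene, so its reads could be split between copies.

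Among the H2B genes, HIST1H2BC was at 431 and 429, HIST1H2BB at 117 and 95.3, HIST1H2BL at 101 and 78.1, HIST1H2BN at 77.1 and 83.8, and HIST2H2BF at 117 and 125. HIST1H2BM (chr6:27815044-27815424, plus strand) was the 1 gene 2-fold higher, at 75.2 and 29.4 with intervals from 68.0 to 82.5 and from 24.7 to 34.0, a log2 ratio of 1.33. All of its 50-base words were unique to it.

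Among the H2A genes, HIST2H2AC was at 182 and 227, HIST1H2AB at 191 and 150, HIST1H2AK at 150 and 152, HIST1H2AG at 77.5 and 74.6, and HIST2H2AB at 61.0 and 79.4. HIST2H2AC and HIST2H2AB, which stand side by side on chromosome 1, were both lower, and HIST1H2AB on chromosome 6 was higher. Over all 6 genes past the limit in the HIST2 cluster on chromosome 1, 5 were lower and 1 higher, and the summed level of all 12 genes of the cluster was 625 and 708, without the further HIST2H2BE transcript described below. Over the 31 of the HIST1 cluster on chromosome 6, 8 were lower and 23 higher (15 and 16 under the TPM scaling), and the summed level of all 55 genes of the cluster was 10749 and 9094; on annotated transcripts alone the HIST1 sum was 6553 and 7308, the opposite order.

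Summed over all 71 genes, the level was 11449 in the knockdown and 9925 in the control library, a ratio of 1.15; on annotated transcripts alone it was 7096 and 7968, a ratio of 0.890, and as FPKM times kilobases 6198 and 5540, a ratio of 1.12. By family, H2B was at 2634 and 2460, and lower by log2 in the TPM scaling (-0.073). H2A was at 2083 and 1710, H3 at 2676 and 1956 and H4 at 2929 and 2316, each higher in the knockdown library but lower on annotated transcripts alone, with ratios there of 0.684, 0.734 and 0.930. The linker histones H1 were at 1127 and 1482, and at 1071 and 1099 as FPKM times kilobases. A few genes carried most of the sum: the 10 highest made up 64.1% in the knockdown and 62.5% in the control library.

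Head-to-head pairs, with start sites within 1 kilobase on opposite strands, numbered 12, of which 11 joined an H2A and an H2B gene. Both partners passed the limit in 8 pairs, 1 partner in 1 pair, and neither in 3 pairs. HIST1H2BM and HIST1H2AJ, whose starts lie 304 bases apart with the last octamer window shown above between them, were at 75.2 and 29.4 and at 92.0 and 31.5, so that both were higher in the knockdown library. The value of HIST1H2AJ stood on assembled transcripts alone, of 469 bases in the knockdown and 1176 in the control library, and as FPKM times kilobases was 43.2 and 37.0; only 16.3% of its 50-base words were unique. HIST1H2BC and HIST1H2AC, 219 bases apart, were at 431 and 429 and at 496 and 118; as FPKM times kilobases HIST1H2AC was at 288 and 195. HIST1H2BL, at 101 and 78.1, and HIST1H2AI, at 249 and 225, lay 268 bases apart, and HIST1H2BJ and HIST1H2AG, at 469 and 304 and at 77.5 and 74.6, lay 292 bases apart.

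Of the 33 genes under the limit, 23 were listed at 0 in both libraries. The longest run of neighbours at or near 0 held 15 genes over 84.6 kilobases (chr6:26188765-26273356), from HIST1H4D to HIST1H2BI, among them H1, H2A, H2B, H3 and H4 genes; 13 were listed at 0 in both libraries and the highest value was 0.151. The 5 other annotated genes inside the run that the files list were at 0 in both libraries too. A shorter run of 4 genes at 0, HIST1H2AL, HIST1H1B, HIST1H3I and HIST1H4L, lay at chr6:27865355-27873510, and the 3 genes of the HIST3 cluster (HIST3H3, HIST3H2A and HIST3H2BB) reached at most 0.106. HIST1H2BA and HIST1H2AA, a pair known mainly from testis, were at 1.37 and 1.08 and at 0.157 and 0. Sequence that genes share bears on some of these: 6 genes had no 50-base word of their own, and HIST2H2AA3, listed at 0, is nearly a copy of HIST2H2AA4, at 56.2 and 52.8. A value of 0 in these files can be a failed estimate: PRIM1, a primase subunit that dividing cells use, was listed at 0 in both libraries too, as was MIF4GD, a partner of SLBP. So these genes are described as listed at 0 and not as silent.

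HIST2H2BE (chr1:149884459-149886652, minus strand, H2B) was at 16.9 and 18.1 on its GENCODE 29 transcript. The annotation used by the authors held a further transcript of 444 bases in 2 exons, not in GENCODE 29, which covers 377 bases of its coding sequence and was listed at 392 in the knockdown and 398 in the control library. Counted per coding base with that transcript the gene stood at 405 and 412, so its level, but not its order between libraries, turned on the annotation.

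The genes that make, process and carry histones were read from 6 lists chosen alongside the histone genes. Of 24 measured genes for 3′ end processing and decay of histone messages, 1 was 2-fold lower and none 2-fold higher, with a median log2 ratio of -0.03. For this and the lists that follow, the shares over all genes were 2.57% lower and 2.80% higher, and the median 0.02 (4.87% and 5.31% on annotated transcripts alone). SLBP was at 36.4 and 38.4. The 1 lower gene was CPSF2, a subunit of the cleavage complex, at 8.49 and 25.5, with a log2 ratio of -1.48 that was -0.05 on annotated transcripts alone, where CASP8AP2 was the 1 lower gene (1.01 and 5.73, against 5.90 and 5.73 with assembled transcripts), and LSM1, of the decay machinery, was highest at 14.5 and 9.86. Of 11 genes for histone transcription none reached 2-fold; NPAT was at 15.0 and 15.1, CCNE1, cyclin E1, lowest at 4.73 and 7.08, and HINFP, the H4 promoter factor, highest at 5.05 and 3.99.

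Of 16 histone chaperones none reached 2-fold, between CHAF1B, a subunit of chromatin assembly factor 1, at 5.76 and 10.1, and CABIN1, of the HIRA complex, at 4.61 and 3.74. On annotated transcripts alone CHAF1B was at 5.76 and 2.50, the other direction. Of 29 measured genes of DNA replication and S phase, 2 were 2-fold lower and none 2-fold higher; 20 values were lower and 9 higher, with a median log2 ratio of -0.13; on annotated transcripts alone 16 were lower and 13 higher, with a median of -0.046. The 2 were GINS2, of the replicative helicase, at 5.34 and 12.5, and CDC6, the replication licensing factor, at 11.1 and 23.7; on annotated transcripts alone their log2 ratios were 0.44 and 0.29, the other direction. TYMS, thymidylate synthase, was highest at 97.7 and 74.1. In RNA from whole cultures, fewer cells in S phase and less RNA per cell cannot be told apart.

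The list of variants and other histone genes outside these clusters holds mostly genes with polyadenylated messages; H2AFX is also known to give a message that ends at a stem-loop. Of 10 measured none reached 2-fold and the median log2 ratio was 0.04. H2AFZ was at 242 and 256, H2AFX at 106 and 106, H1F0 at 27.9 and 28.0 and H3F3A at 134 and 116. H3F3B, at 190 and 121, was highest, and past 2-fold on annotated transcripts alone (121 and 30.2), and H2AFJ lowest at 19.6 and 21.7. Of 13 RNAs known to carry no poly(A) tail that were looked up, 3 were listed, in both libraries. RMRP was at 74785 and 69392, TERC at 360 and 255 and SNORD3A, the U3 RNA, at 913 and 554. The preparation is described only as a standard one on total RNA, and the part of RNA selection in the histone levels was not tested.

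**Figure D5:**
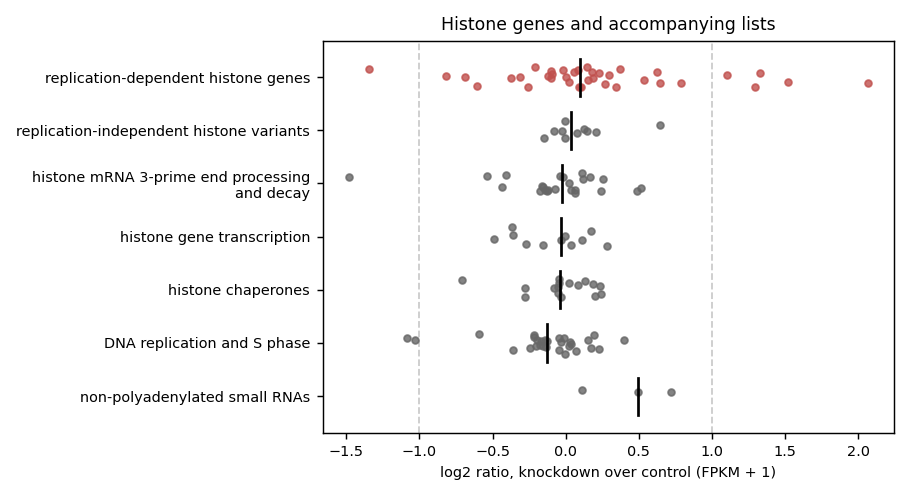
Log2 ratio of FPKM plus 1, knockdown over control, of each histone gene and each gene of 6 accompanying lists that passed the limit of 1 FPKM; 1 point per gene, black bars are list medians, dashed lines mark 2-fold, and HIST1H4A, listed at 0 in the knockdown library, has no point but counts in the median. The histone genes have a median of 0.10 and those of the replication list one of -0.13, on the scale with assembled transcripts.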

How the data were processed

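RNA-seq of 1 RBMS1 knockdown and 1 control library of MDA-MB-231 cells was used. Per the submitters' processing notes, Bowtie2 2.0.6, TopHat2 2.0.9, Cufflinks 2.1.1 and Cuffdiff 2.1.1 were run. The authors deposited 1 transcript file per library, with FPKM and its interval for annotated and assembled transcripts, and a table comparing both libraries, from which only its FPKM columns were read; its fold changes and p-values were not used. Depth is unknown beyond the ratio of coverage to FPKM.

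Transcripts were joined to GENCODE 29 (GRCh38; 98.1% had the same start) by identifier. FPKM was summed per gene, with each assembled transcript given to 1 same-strand gene (at least 1 shared base). A mean FPKM of at least 1 was required, 1 was added before log2, and 2-fold changes were counted. Code was tested on simulated data (Python 3, pandas). Named were the 30 histone genes of highest mean among those at 5 FPKM or more, plus fixed control genes and each list's extremes; genes at 2-fold or in counts of up to 5 were named after their values were seen. The histone genes and the lists were chosen with earlier results of these data known. Sequences came from GENCODE 29 transcripts and RefSeq promoters.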

Additional observations from a re-analysis of the deposited data

How the results depend on the processing

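No paired analysis was possible because each group holds 1 library, and for the same reason none could be left out. The median log2 ratio of the histone genes lay between -0.07 and 0.11 under all alternatives; scaled to TPM over annotated transcripts it was -0.07, where the median of all genes was -0.14. The count of 2-fold lower histone genes, 2 as reported, was 7 on annotated transcripts alone, 6 with assembled transcripts only where an intron is shared (2.78% of all genes), 1 for genes above 0 in both libraries, 1 for the 27 genes with at least 80% unique words, and, in settings chosen after seeing the data, 1 per coding base and 0 for genes without assembled transcripts. The count of 2-fold higher genes, 5, was 3 on annotated transcripts alone, 3 for genes with unique words and 1 for genes without assembled transcripts; it was 4 under the TPM scaling, where HIST1H3J fell short. The log2 ratio of the summed level, 0.21, was -0.17 on annotated transcripts and -0.14 with shared introns. On annotated transcripts the family sums were -0.026 (H1), -0.55 (H2A), -0.45 (H3) and -0.11 (H4), with shared introns -0.026, -0.55, -0.13 and -0.11, as FPKM times length -0.037 (H1) and 0.031 (H2A), and with unique words 0.70 (H2A). HIST1H4B turned from 1.29 to -0.67 both on annotated transcripts alone and with shared introns. Among the lists, annotated transcripts alone (4.87% of all genes lower, 5.31% higher) gave 1 variant 2-fold higher, 3 transcription genes 2-fold lower, a chaperone median of 0.16 with 1 gene 2-fold higher, and 0 replication genes lower with 2 higher; replication genes 2-fold lower were 0 with 5 FPKM added, 0 as FPKM times length and 1 with shared introns, and processing genes 0 as FPKM times length. Apart from those built only on fewer transcripts or genes, the causes were not tested. A gene listed at 0 in 1 library under a setting counts in the medians and 2-fold counts, but no ratio of its own is given.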

Other observations

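The table that compares both libraries lists 8 histone transcripts, chosen there by a p limit, with FPKM estimated again from the same libraries. HIST1H2BM was at 146 in the knockdown and 57.7 in the control library there, and HIST4H4 at 140 and 230, in both cases higher levels than in the library files and the same order. The HIST1H2BD transcript in that table, a spliced one listed at 0 in both library files, was at 32.6 and 12.2, the opposite order to the gene's 586 and 700, and the HIST1H2AC transcript, a minor one listed at 0 in both library files, at 6.68 and 2.45. HIST1H4I, listed at 0 in both library files, was at 1.36 and 0.220. HIST1H1T, known mainly from testis, was at 0.632 and 0, HIST1H2BN at 0.890 and 0.324 on 1 transcript, and HIST1H2BJ at 2.51 and 0 on a spliced transcript.

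For each of the 32 histone genes with an annotated stem-loop, the transcript with the fewest bases after the stem-loop was read. That transcript ends within 100 bases after it in 13 genes and runs more than 1000 bases on in 11. Other transcripts of a gene can run further. Of the 32 genes, 16 passed the limit of 1 FPKM. The motif AATAAA was present in the last 50 bases of a model in 21 of the 71 genes and in 12 of the 38 past the limit.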
